A study of Homo sapiens with 12 samples.

Results

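Silencing of NTRK2 in senescent fibroblasts was examined in 6 of the 12 libraries of the series, the 3 siNTRK2_Sen and the 3 siCtrl_Sen libraries, which were chosen by their sample labels. All were bulk RNA-seq libraries of WI-38 cells, an established line of human diploid lung fibroblasts. Both groups were kept for 8 days in 50 µM etoposide, which traps topoisomerase II on broken DNA and drives cells into senescence. They differed in the siRNA, transfected at 25 nM: a pool directed at NTRK2 mRNA or a control pool (siCtrl). The other 6 libraries were 3 of senescent cells with an siRNA pool directed at BDNF mRNA (siBDNF_Sen, same drug and day) and 3 of proliferating cells with siCtrl kept for 8 days in the solvent DMSO (siCtrl_Prolif). Each target was silenced with a single pool in a single cell line, so effects of a pool on other mRNAs cannot be told apart from those of its target.

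NTRK2 encodes TrkB, the receptor tyrosine kinase for the neurotrophin BDNF, which signals through the RAS-ERK, PI3K-AKT and PLCγ routes and is best known for supporting neurons. Senescent cells have left the cell cycle for good under the inhibitors p21 and p16, enlarge, and secrete a mixture of chemokines, cytokines and proteases, the senescence-associated secretory phenotype (SASP). The comparison asks which mRNAs differ in senescent cells when the mRNA of this receptor is silenced.

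NTRK2 counts were low in all libraries. The siCtrl_Sen libraries held 7, 15 and 10 NTRK2 counts, equal to 0.125, 0.258 and 0.173 normalized CPM (counts scaled to a common library size). No NTRK2 count was found in the siNTRK2_Sen libraries, where the limit of 3 counts corresponds to 0.0485, 0.0605 and 0.0559 CPM. Set against the mean of those limits, NTRK2 mRNA was thus at least 3.37-fold lower, and the groups did not overlap. BDNF mRNA, which encodes the ligand, was 161, 157 and 169 CPM in the siCtrl_Sen and 205, 206 and 203 CPM in the siNTRK2_Sen libraries. The BDNF groups did not overlap, and the rise passed the test (log2 fold change 0.33, adjusted p = 8.35e-06 from edgeR).

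Depth was similar in both groups, with 56918503 to 58653356 counts per siCtrl_Sen and 49412503 to 61600358 per siNTRK2_Sen library. One library stood apart: on the second principal component, which held 7.92% of the variance, siNTRK2_Sen replicate 2 lay at -64.6 and the other siNTRK2_Sen libraries at -10.6 and -12.4. It also had the fewest genes with a count of the 6, 26706 against 28535 to 30049. The counts of the main lists are therefore also given without it. All 12 fibroblast markers reached 1 CPM in at least 1 library of every group. They summed to 23600 to 25500 CPM in siCtrl_Sen and 27900 to 30900 CPM in siNTRK2_Sen libraries. The 12 epithelial markers summed to 118 to 142 and 110 to 117 CPM, the 9 endothelial markers to 36.2 to 37.9 and 36.4 to 42.4 CPM, and the 12 immune cell markers to 139 to 150 and 115 to 119 CPM. The 10 neural markers summed to 270 to 294 and 204 to 225 CPM. In the siNTRK2_Sen group 8 epithelial, 7 endothelial, 10 immune and 6 neural markers were under 1 CPM in every library. The keratin gene KRT5 and the myeloid adaptor gene TYROBP were at 0 in this group. The fibroblast sums were thus higher and the epithelial, immune and neural sums lower with siNTRK2, without overlap of the groups. Of the 12 fibroblast markers, 8 were called higher and 1 lower, and the set includes collagen genes that return in the collagen list below. Of 9 tested epithelial markers, 2 were called lower. Of 7 tested immune and 7 tested neural markers, 1 in each set was higher and 1 lower. Most markers of these sets were under 1 CPM, so few genes make up their sums. The part of these shifts in the results below was not tested. In bulk RNA, fewer cells of a kind and less RNA per cell cannot be told apart.

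Of 21518 genes tested, 84 (0.390%) were higher and 122 (0.567%) lower with siNTRK2 when a call needed both an adjusted p below 0.05 and a log2 fold change beyond 1 in either direction, and by adjusted p alone 2390 (11.1%) were higher and 2158 (10.0%) lower. Most strong calls were in rare mRNAs, and 58 of the 206 had a mean of at least 1 CPM, of which 37 rose and 21 fell. All 58 had groups that did not overlap, and so had 7068 of the 21518 tested genes (3612 higher, 3456 lower). Lack of overlap was also a condition for naming the largest changes, so it is no added support for those genes. The median log2 fold change of all tested genes was near 0, at -0.00236. Among genes called by adjusted p alone the median absolute change was 0.296. Fold changes are given on the log2 scale as the estimate ± its standard error. The lists below are counted at the adjusted p alone, and the shares of 11.1% higher and 10.0% lower are what each count should be read against. These shares cover all tested genes, of which 15557 had a mean of at least 1 CPM. Small changes are harder to detect in rarer genes, so lists of abundant mRNAs can exceed the shares for that reason. No share matched for abundance was computed.

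**Figure D1:**
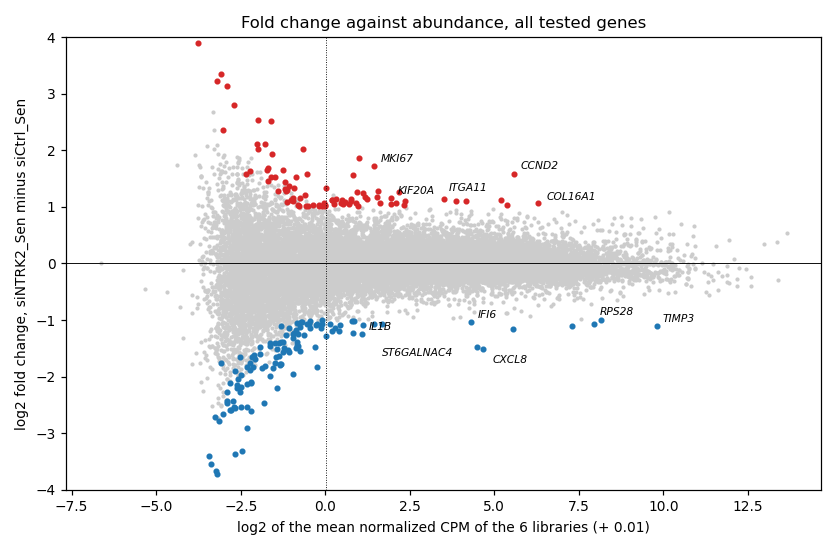
Each point is a tested gene, with the log2 of its mean normalized CPM over the 6 libraries (0.01 added) on the x axis and its log2 fold change, siNTRK2_Sen minus siCtrl_Sen, on the y axis. Red and blue points passed both the adjusted p of 0.05 and the fold change, the dotted line marks 1 CPM, and 5 called genes below -4 lie off the plot. The called genes to the right of the line include CCND2 at 1.58, CXCL8 at -1.52 and TIMP3 at -1.11.

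mRNAs of the mitotic machinery were higher with siNTRK2. Of 61 tested mitosis genes, 51 rose and the other 10 did not pass the test, with a median log2 fold change of 0.76. Without siNTRK2_Sen replicate 2, 48 rose. MKI67, which encodes the Ki-67 proliferation antigen, was at 1.64, 1.38 and 0.814 CPM in the siCtrl_Sen and 4.35, 3.85 and 4.36 CPM in the siNTRK2_Sen libraries (log2 fold change 1.72 ± 0.17, adjusted p = 4.33e-08, edgeR). Its 2 groups did not overlap, and all 3 siNTRK2_Sen values lay far below the 15.8, 16.9 and 16.4 CPM of proliferating cells. KIF20A, a kinesin of cytokinesis, was at 2.44, 2.57 and 2.16 against 5.12, 5.60 and 5.22 CPM (log2 fold change 1.15 ± 0.11, adjusted p = 1.95e-08, edgeR). DLGAP5, a spindle microtubule protein, was at 1.82, 1.84 and 1.47 against 4.36, 4.07 and 4.08 CPM (log2 fold change 1.29 ± 0.12, adjusted p = 4.33e-08, edgeR). In both genes the libraries of a group lay close together and the groups were apart.

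Members with different roles in mitosis were among the rises. Among the entry kinases and cyclins, PLK1 changed by 1.11 (adjusted p = 1.96e-08, edgeR), CDK1 by 0.76 (adjusted p = 0.000837, edgeR) and CCNB1 by 0.54 (adjusted p = 1.57e-06, edgeR). Kinetochore and checkpoint genes rose as well, among them CENPF by 1.27 (adjusted p = 3.57e-06, edgeR), CENPE by 1.27 (adjusted p = 0.000266, edgeR), TTK by 1.14 (adjusted p = 5.32e-05, edgeR) and BUB1B by 1.07 (adjusted p = 4.98e-07, edgeR). Of the genes that condense and untangle chromosomes, TOP2A rose by 1.11 (adjusted p = 7.09e-11, edgeR) and the condensin subunits NCAPG and SMC4 by 1.04 (adjusted p = 1.04e-07, edgeR) and 0.95 (adjusted p = 2.11e-07, edgeR). The transcription factor genes FOXM1 and MYBL2, which drive this program, rose by 0.43 (adjusted p = 0.000495, edgeR) and 0.77 (adjusted p = 0.00264, edgeR). CDC25A, CENPA and PTTG1, at -0.02, 0.02 and 0.03, were among the members that did not pass. The median mitosis gene was at 12.4% of its proliferating level in siCtrl_Sen and 23.3% in siNTRK2_Sen libraries.

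**Figure D2:**
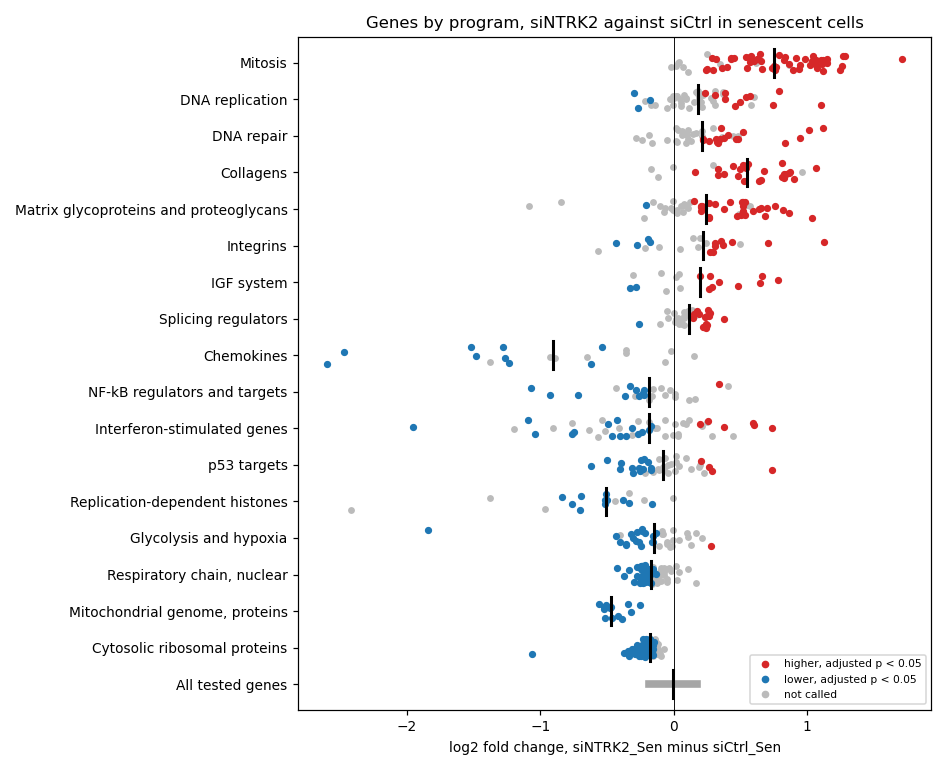
Each point is a tested gene of the list named on the left, placed by its log2 fold change, siNTRK2_Sen minus siCtrl_Sen, on the x axis. Red and blue points are genes higher or lower at an adjusted p under 0.05, gray points did not pass, black ticks are medians, and the gray bar spans the middle 50% of all tested genes. The mitosis median lies at 0.76, the collagen median at 0.55 and the chemokine median at -0.91.

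The promoters of the listed mitosis genes hold recurring elements, printed here as background. The shares below cover the tested members whether or not they rose, so they do not depend on the change with siNTRK2. RefSeq promoter sequences (GRCh38.p14, 250 bases before to 50 after the start) were found for 54 of the 61 tested mitosis genes. The windows were searched on both strands for CCAAT, the CCAAT box, and for TTTGAA or TTTAAA, 2 forms of the cell cycle homology region (CHR). Both elements were in 31 of the 54 (57.4%), against 9.27% of all 35116 promoters in the table. A CCAAT box, with or without a CHR, was in 70.4% and 34.6%, and a CHR, with or without a CCAAT box, in 77.8% and 24.0%. Printed here are 150 bases before to 50 after the start for MKI67 (chr10:128126374-128126573, minus strand), KIF20A (chr5:138178962-138179161, plus strand) and DLGAP5 (chr14:55191536-55191735, minus strand), 5′ to 3′ in the direction of the gene, with both elements in capitals. In MKI67 one CHR overlaps the CCAAT box that follows it.
MKI67: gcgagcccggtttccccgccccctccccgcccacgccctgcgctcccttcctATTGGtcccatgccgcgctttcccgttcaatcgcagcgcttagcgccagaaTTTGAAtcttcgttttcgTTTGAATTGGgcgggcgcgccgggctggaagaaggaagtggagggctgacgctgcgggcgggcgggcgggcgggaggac
KIF20A: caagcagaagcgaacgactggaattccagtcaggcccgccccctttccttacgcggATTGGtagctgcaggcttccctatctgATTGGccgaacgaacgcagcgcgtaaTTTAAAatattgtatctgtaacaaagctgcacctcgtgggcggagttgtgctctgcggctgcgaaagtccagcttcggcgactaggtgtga
DLGAP5: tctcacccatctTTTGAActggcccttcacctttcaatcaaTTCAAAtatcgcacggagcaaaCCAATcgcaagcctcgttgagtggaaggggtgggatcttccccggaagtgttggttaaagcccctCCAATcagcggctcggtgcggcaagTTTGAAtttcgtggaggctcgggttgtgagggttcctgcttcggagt
The KIF20A window holds CCAAT boxes that begin 94 and 67 bases before the start and a TTTAAA 41 bases before it.

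Replication and repair genes changed less. Of 50 DNA replication genes, 11 rose and 3 fell (median 0.19), and 16 rose without siNTRK2_Sen replicate 2. CLSPN, the adaptor of the replication checkpoint, rose by 1.11 (adjusted p = 0.000372, edgeR) and the origin licensing gene CDC6 by 0.79 (adjusted p = 1.9e-05, edgeR), while PCNA, the sliding clamp, fell by 0.30 on the log2 scale (adjusted p = 0.000315, edgeR). With a correction for transcript length and GC content, 18 replication genes rose. Of 42 DNA repair genes, 17 rose and the other 25 did not pass (median 0.21), and without the replicate 18 rose. With the length and GC correction 14 repair genes rose (median 0.13). The 17 rises of the main fit included RAD51AP1, a gene of homologous recombination, at 1.12 (adjusted p = 0.000549, edgeR), the helicase gene BRIP1 at 0.83 (adjusted p = 6.54e-05, edgeR) and BRCA1 at 0.48 (adjusted p = 0.0074, edgeR). The kinase genes ATM, ATR and PRKDC of the DNA damage response rose by 0.38 (adjusted p = 0.00189, edgeR), 0.32 (adjusted p = 0.000746, edgeR) and 0.47 (adjusted p = 2.54e-07, edgeR).

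Of 27 tested cyclins, cyclin-dependent kinases and their inhibitors, 7 rose, 5 fell and 15 did not pass, with 8 rises and 2 falls without siNTRK2_Sen replicate 2. Without siNTRK2_Sen replicate 3 there were 4 rises. CCND2, which encodes cyclin D2, had the smallest p among the rises: it was at 25.3, 23.2 and 23.9 CPM in the siCtrl_Sen and 69.2, 72.6 and 75.2 CPM in the siNTRK2_Sen libraries (log2 fold change 1.58 ± 0.062, adjusted p = 4.04e-15, edgeR). The groups were far apart, and both exceeded the 3.36, 4.12 and 3.44 CPM of proliferating cells. CCND2 lies at chr12:4378937-4414519 of hg19. CDKN1A, which encodes the p53-induced inhibitor p21, was at 2961, 2774 and 2896 against 2087, 1954 and 2055 CPM (log2 fold change -0.50 ± 0.041, adjusted p = 2.8e-09, edgeR). Its lower values remained above the 929, 913 and 966 CPM of proliferating cells. CDKN2A and CDKN2B, which encode the other inhibitors p16 and p15, rose by 0.21 (adjusted p = 0.0251, edgeR) and 0.27 (adjusted p = 0.00137, edgeR), and CCND1 fell by 0.15 on the log2 scale (adjusted p = 0.0065, edgeR). The CDKN2A groups overlapped and its call was lost in 4 of 6 fits that left out 1 library.

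p53 targets leaned the other way. Of 39 tested, 14 fell and 4 rose (median -0.08), with 12 falls and 5 rises without siNTRK2_Sen replicate 2. GDF15, a stress-induced secreted factor that marks senescent cells, was at 212, 212 and 210.5 against 149.6, 124 and 139 CPM (log2 fold change -0.62 ± 0.053, adjusted p = 4.79e-09, edgeR). Falls also passed for PMAIP1, which encodes the BH3-only protein NOXA, at -0.41 (adjusted p = 2.3e-05, edgeR), for MDM2, the ubiquitin ligase of p53, at -0.23 (adjusted p = 0.00243, edgeR), and for DDB2, a sensor of UV lesions, at -0.31 (adjusted p = 0.00134, edgeR). SULF2, a sulfatase gene, was the largest rise at 0.74 (adjusted p = 1.79e-09, edgeR). The fall of the pathway's members was small next to the senescence change, in which the list's median was 0.45 between siCtrl_Sen and siCtrl_Prolif.

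Of the 12 senescence markers, which overlap these lists, 9 rose and 3 fell, the latter being GDF15, CDKN1A and IL6. LMNB1, which encodes lamin B1 and is lost in senescence, was at 2.46, 1.81 and 2.18 against 3.60, 3.23 and 3.05 CPM (log2 fold change 0.62 ± 0.12, adjusted p = 0.00045, edgeR), with 39.1, 39.1 and 40.5 CPM in proliferating cells. DPP4, a surface marker of senescent fibroblasts, rose from 108, 118 and 112 to 179, 186 and 183 CPM (log2 fold change 0.69 ± 0.046, adjusted p = 9.63e-11, edgeR). Thus markers that fall in senescence and markers that rise in it were both among the rises. Of 53 replication-dependent histone genes listed, only 23 were matched by symbol, and 18 were tested in these polyadenylated libraries. Of these 18, 11 fell (median -0.51, 10 without siNTRK2_Sen replicate 2), and 8 fell with the length and GC correction. Without siCtrl_Sen replicate 1 the count was 6 and without siNTRK2_Sen replicate 3 it was 7. H1-2, a linker histone gene, was at 73.2, 66.6 and 72.8 against 39.2, 40.3 and 39.7 CPM (log2 fold change -0.83 ± 0.056, adjusted p = 9.63e-11, edgeR). Some histone genes are near-identical copies of each other, so how reads were split among such copies is uncertain.

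**Figure D3:**
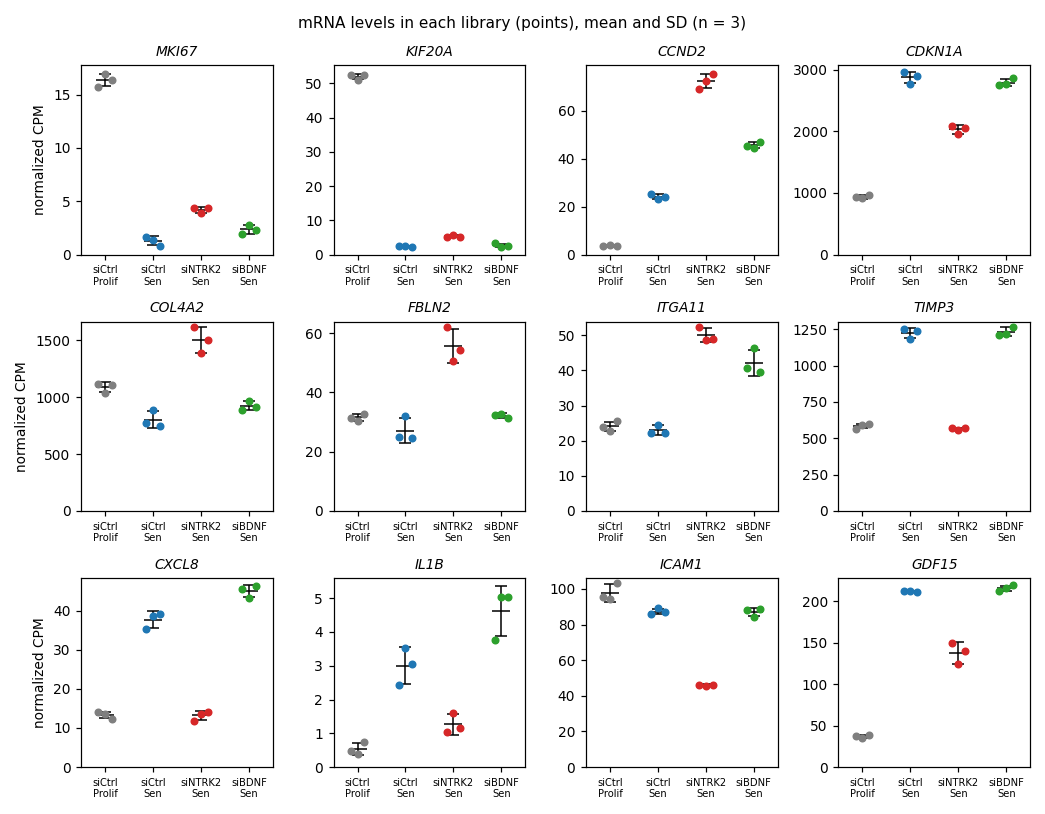
Normalized CPM of 12 mRNAs in every library, with 1 panel per gene and 1 point per library in the groups siCtrl_Prolif, siCtrl_Sen, siNTRK2_Sen and siBDNF_Sen. Bars are the mean and SD (n = 3), and all y axes start at 0. The 12 genes were chosen after their values were seen. In all 12 panels the siNTRK2_Sen and siCtrl_Sen points do not overlap, as for CXCL8 at 13.2 against 37.7 and COL4A2 at 1505 against 803 mean CPM. Over all genes, 7068 of 21518 tested did not overlap.

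Genes of the extracellular matrix formed the other large rise. Of 28 tested collagen genes, 23 rose and the other 5 did not pass (median 0.55), and the count was 23 without siNTRK2_Sen replicate 2 and 23 with the length and GC correction. The basement membrane pair COL4A1 and COL4A2, neighbours on chromosome 13 of hg19, rose together. COL4A1 (chr13:110801310-110959504) was at 604, 668 and 606 against 1162, 1055 and 1091 CPM (log2 fold change 0.82 ± 0.047, adjusted p = 6.46e-12, edgeR). COL4A2 (chr13:110958159-111165556) was at 775, 891 and 744 against 1621, 1388 and 1505 CPM (log2 fold change 0.91 ± 0.059, adjusted p = 7.09e-11, edgeR). COL16A1, a fibril-associated collagen, had the largest change of the list that passed, from 48.1, 57.5 and 45.8 to 115, 93.8 and 109 CPM (log2 fold change 1.07 ± 0.075, adjusted p = 2.03e-10, edgeR). In each of these genes the lowest siNTRK2_Sen value was above the highest siCtrl_Sen value. The abundant fibrillar collagens COL1A1, COL1A2 and COL3A1 rose by 0.38 (adjusted p = 1.02e-05, edgeR), 0.34 (adjusted p = 4.07e-06, edgeR) and 0.52 (adjusted p = 2.24e-09, edgeR). Collagens were lower in senescence, with a median of -0.66 in siCtrl_Sen against siCtrl_Prolif, and the median collagen gene was at 63.3% of its proliferating level in siCtrl_Sen and 96.0% in siNTRK2_Sen libraries.

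Of 52 matrix glycoprotein and proteoglycan genes, 29 rose, 1 fell and 22 did not pass (median 0.24), with 31 rises without siNTRK2_Sen replicate 2. FBLN2, which encodes the elastic fiber protein fibulin 2, was at 25.0, 31.9 and 24.4 against 62.0, 50.5 and 54.4 CPM (log2 fold change 1.04 ± 0.081, adjusted p = 1.29e-09, edgeR). ELN, which encodes elastin, was at 27.0, 25.9 and 25.3 against 47.6, 42.1 and 48.7 CPM (log2 fold change 0.82 ± 0.059, adjusted p = 3.12e-10, edgeR). Laminin, fibronectin and versican genes rose too, with LAMA1 at 0.87 (adjusted p = 6.4e-10, edgeR), FN1 at 0.53 (adjusted p = 3.1e-07, edgeR) and VCAN at 0.70 (adjusted p = 2.8e-09, edgeR). The gene that fell was LOXL1, a crosslinking oxidase, at -0.21 (adjusted p = 0.0174, edgeR). Not all matrix genes moved, and DCN, SPARC and THBS1 changed by -0.07, 0.07 and -0.01 and did not pass.

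Among 22 integrin and matrix receptor genes, 9 rose and 4 fell (median 0.22, 10 and 4 without siNTRK2_Sen replicate 2). ITGA11, a collagen receptor subunit, was at 22.1, 24.6 and 22.2 against 52.4, 48.8 and 49.1 CPM (log2 fold change 1.13 ± 0.067, adjusted p = 1.18e-11, edgeR). The fibronectin receptor subunit ITGA5 fell by 0.19 on the log2 scale (adjusted p = 0.00138, edgeR). Of 33 genes of matrix proteases and their inhibitors, 13 rose and 5 fell, 11 and 5 without the replicate. The fibroblast protease genes ADAM12 and ADAMTS2 rose by 0.79 (adjusted p = 2.21e-09, edgeR) and 0.74 (adjusted p = 9.63e-11, edgeR), and the stromelysin and collagenase genes MMP3 and MMP1 fell by 0.46 and 0.22 on the log2 scale (adjusted p = 3.92e-06 and 0.000622, edgeR). TIMP3, a matrix-bound inhibitor of these enzymes, had the smallest p of all falls. It was at 1251, 1186 and 1237 CPM in siCtrl_Sen and 568, 559.9 and 572 CPM in siNTRK2_Sen libraries (log2 fold change -1.11 ± 0.041, adjusted p = 2.07e-15, edgeR), close to the 566, 588 and 598 CPM of proliferating cells. TIMP3 lies at chr22:33197691-33259028 of hg19, inside the span of SYN3, which is on the opposite strand, and whether counting used the strand is not given in the sources used here. The IGF binding protein genes IGFBP7, IGFBP2 and IGFBP5 rose by 0.78 (adjusted p = 8.4e-12, edgeR), 0.66 (adjusted p = 1.41e-06, edgeR) and 0.48 (adjusted p = 1.96e-09, edgeR), within 9 rises and 2 falls among 17 genes of the IGF system.

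Chemokine mRNAs fell. Of 18 chemokine genes tested, 9 fell and the other 9 did not pass (median -0.91), and 10 fell without siNTRK2_Sen replicate 2. CXCL8, which encodes interleukin 8 and attracts neutrophils, was at 35.3, 38.7 and 39.1 CPM in siCtrl_Sen and 11.9, 13.5 and 14.2 CPM in siNTRK2_Sen libraries (log2 fold change -1.52 ± 0.071, adjusted p = 1.28e-13, edgeR). The groups did not overlap, and proliferating cells had 14.1, 13.5 and 12.4 CPM. The other neutrophil chemokine genes were rarer: CXCL1 was at 2.44, 2.03 and 2.98 against 1.15, 0.988 and 1.02 CPM (log2 fold change -1.23 ± 0.18, adjusted p = 1.88e-05, edgeR) and CXCL5 at 1.28, 0.827 and 1.40 against 0.372, 0.343 and 0.54 CPM (log2 fold change -1.48 ± 0.29, adjusted p = 0.000502, edgeR). CXCL10, an interferon-induced attractant of T cells, was at 1.44, 1.05 and 1.82 against 0.776, 0.343 and 0.633 CPM (log2 fold change -1.28 ± 0.32, adjusted p = 0.00554, edgeR). CCL2, which attracts monocytes, fell from 16.6, 17.1 and 16.7 to 10.7, 11.6 and 10.6 CPM (log2 fold change -0.62 ± 0.08, adjusted p = 3.6e-06, edgeR). CXCL3 and CXCL12 also fell, by 1.27 and 0.53 on the log2 scale (adjusted p = 0.00745 and 0.000941, edgeR), and the calls for CXCL11 and CCL20 rest on under 1 CPM in all 6 libraries. The median chemokine gene was at 236% of its proliferating level in siCtrl_Sen and 88.0% in siNTRK2_Sen libraries. Only 9 of the 18 genes had at least 10 counts in every library, and 7 of these 9 fell. The medians of this list thus rest in part on few counts.

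The promoters of 3 of these genes are shown because the genes share a site type of NF-kB, the transcription factor of many inflammatory genes. The motif GGANTTTCC, searched on both strands, was in 8 of 15 chemokine promoters with a RefSeq sequence (53.3%), against 1.64% of all 35116 promoters. It is a match of letters only, and the share covers the tested chemokine genes whether or not they fell. The share therefore does not depend on the change with siNTRK2, and a part of NF-kB in the falls was not tested. The windows run from 150 bases before to 50 after the start of CXCL8 (chr4:73740419-73740618, plus strand), CXCL1 (chr4:73869243-73869442, plus strand) and CXCL5 (chr4:73998628-73998827, minus strand) on GRCh38.p14, with the motif in capitals.
CXCL8: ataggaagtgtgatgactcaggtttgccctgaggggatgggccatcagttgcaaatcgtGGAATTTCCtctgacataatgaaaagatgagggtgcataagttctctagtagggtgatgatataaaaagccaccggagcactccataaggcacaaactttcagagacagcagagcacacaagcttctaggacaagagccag
CXCL1: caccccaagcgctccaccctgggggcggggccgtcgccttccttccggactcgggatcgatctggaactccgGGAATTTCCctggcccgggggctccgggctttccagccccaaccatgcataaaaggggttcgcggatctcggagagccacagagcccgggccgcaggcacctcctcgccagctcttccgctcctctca
CXCL5: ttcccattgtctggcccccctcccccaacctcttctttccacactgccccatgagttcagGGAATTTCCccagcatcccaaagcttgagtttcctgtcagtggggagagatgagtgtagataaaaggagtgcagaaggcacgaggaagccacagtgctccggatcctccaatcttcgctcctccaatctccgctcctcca
The match begins 91, 78 and 90 bases before the start of CXCL8, CXCL1 and CXCL5.

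Interleukin 1 mRNAs fell with the chemokines. IL1B was at 2.42, 3.51 and 3.06 against 1.03, 1.61 and 1.15 CPM (log2 fold change -1.25 ± 0.2, adjusted p = 6.54e-05, edgeR), and IL1A, with 0.677, 0.396 and 0.727 against 0.0808, 0.181 and 0.13 CPM, fell as well (log2 fold change -2.21 ± 0.44, adjusted p = 0.000733, edgeR). Both cytokines stand at the head of the inflammatory part of the SASP. IL6, a SASP cytokine also used as a senescence marker, was at 6.77, 6.74 and 6.61 against 5.09, 5.91 and 5.49 CPM (log2 fold change -0.29 ± 0.1, adjusted p = 0.0402, edgeR), a smaller change whose call was lost in 5 of 6 fits that left out 1 library. Over the 35 interleukin and receptor genes, 5 fell and 4 rose, and 3 fell without siNTRK2_Sen replicate 2 or without any single siCtrl_Sen library.

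Of 25 NF-kB regulators and targets, 10 fell and 1 rose (median -0.18), but 6 fell without siNTRK2_Sen replicate 2. ICAM1, which encodes a leukocyte adhesion receptor, was at 86.0, 89.1 and 86.8 against 46.3, 45.4 and 46.2 CPM (log2 fold change -0.93 ± 0.048, adjusted p = 9.74e-13, edgeR). PTGS2, the gene of cyclooxygenase 2, was at 3.65, 3.72 and 3.64 against 1.76, 1.23 and 2.23 CPM (log2 fold change -1.07 ± 0.17, adjusted p = 6.51e-05, edgeR), and the complement gene C3 was at 11.2, 13.2 and 10.2 against 7.14, 6.93 and 7.04 CPM (log2 fold change -0.72 ± 0.091, adjusted p = 2.96e-06, edgeR). The groups of these 3 genes did not overlap. RELA, a subunit of NF-kB, and NFKBIA, its inhibitor and target, fell by 0.32 and 0.26 on the log2 scale (adjusted p = 3.47e-05 and 0.000821, edgeR). NFKB1 changed by 0.01 and did not pass.

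Of 47 interferon-stimulated genes tested, 15 fell and 6 rose (median -0.18), 13 and 6 without siNTRK2_Sen replicate 2. IFI6, an endoplasmic reticulum protein gene, was at 27.0, 27.8 and 25.7 against 12.6, 12.5 and 14.1 CPM (log2 fold change -1.04 ± 0.071, adjusted p = 1.3e-10, edgeR), and ISG15, a ubiquitin-like modifier, at 31.6, 28.9 and 30.2 against 23.2, 19.7 and 21.6 CPM (log2 fold change -0.49 ± 0.067, adjusted p = 8.35e-06, edgeR). The antiviral GTPase gene MX1 fell by 1.09 on the log2 scale (adjusted p = 0.00129, edgeR). The share of rises was near the 11.1% of all genes. Among those that rose, GBP1, a guanylate-binding protein gene, was at 23.6, 24.3 and 22.3 against 35.4, 42.4 and 39.5 CPM (log2 fold change 0.74 ± 0.063, adjusted p = 5.87e-09, edgeR), and the antiviral genes SAMD9 and SAMD9L rose by 0.60 (adjusted p = 0.000305, edgeR) and 0.60 (adjusted p = 7.1e-05, edgeR).

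**Figure D4:**
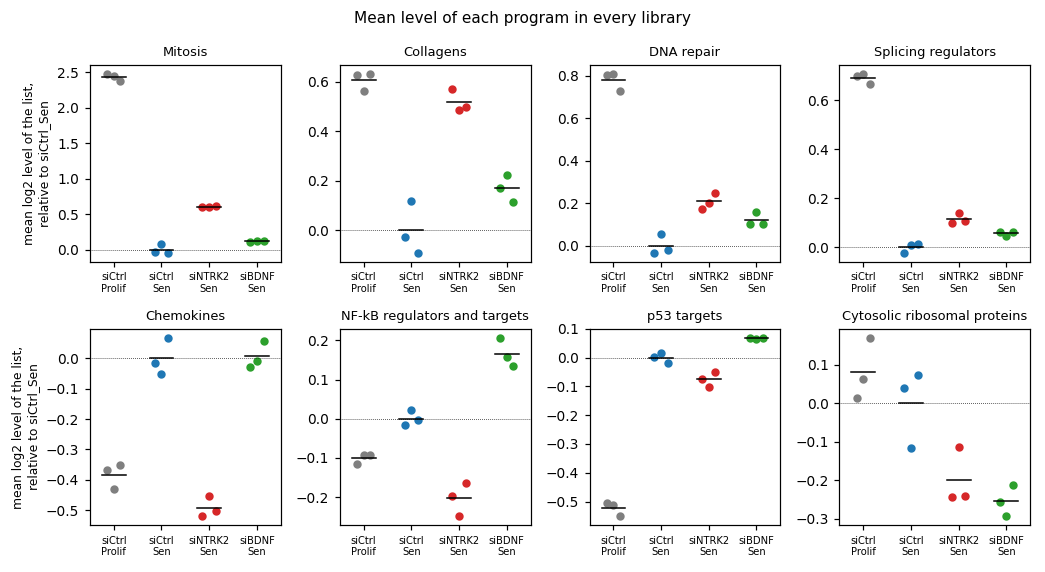
Mean log2 level of the tested genes of 8 lists in every library, as the mean over genes of log2(CPM + 0.5) minus each gene's siCtrl_Sen mean, with 1 point per library and a line at the group mean. In the mitosis panel the siNTRK2_Sen libraries lie at 0.60, 0.597 and 0.622 and the siCtrl_Sen libraries between -0.041 and 0.077. In the chemokine panel they lie between -0.52 and -0.455 against -0.051 to 0.068, and in the ribosomal panel siNTRK2_Sen replicate 2 at -0.112 is level with siCtrl_Sen replicate 2 at -0.115.

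Many genes of energy metabolism and translation fell by small amounts. Of 79 cytosolic ribosomal protein genes, 56 fell and the other 23 did not pass (median -0.18), and 72 fell without siNTRK2_Sen replicate 2. RPL13, as an example, was at 964, 844 and 945 against 759, 715 and 712 CPM (log2 fold change -0.33 ± 0.055, adjusted p = 8.01e-05, edgeR). RPS28 stood apart from this list, with 340.1, 306 and 348 against 159, 159 and 157 CPM (log2 fold change -1.06 ± 0.05, adjusted p = 1.28e-13, edgeR). Its processed copy RPS28P7 fell by 1.16 on the log2 scale (adjusted p = 9.36e-13, edgeR), and since the copies can share reads their separate values are uncertain. Of 76 nuclear genes of the respiratory chain, 42 fell (median -0.17, 44 without siNTRK2_Sen replicate 2), for example NDUFB11 of complex I at -0.42 (adjusted p = 1.22e-05, edgeR) and COX8A of complex IV at -0.33 (adjusted p = 0.000187, edgeR). MT-ND4, a complex I subunit encoded in mitochondrial DNA, was at 3292, 3052 and 2973 against 1992, 2291 and 2029.8 CPM (log2 fold change -0.56 ± 0.088, adjusted p = 4.92e-05, edgeR). All 13 mRNAs of the mitochondrial genome fell (median -0.47), also without siNTRK2_Sen replicate 2. With the length and GC correction 53 ribosomal and 40 nuclear respiratory genes fell. These counts depend on the control libraries: without siCtrl_Sen replicate 1 they were 29 and 24, and without siCtrl_Sen replicate 3 they were 22 and 17. Ribosomal counts without siNTRK2_Sen replicate 1 or 3 were 35 each.

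Of 36 glycolysis and hypoxia genes, 18 fell and 1 rose (median -0.14, 16 falls without siNTRK2_Sen replicate 2). GAPDH was at 5492, 4884 and 5442 against 4018, 3949 and 3992 CPM (log2 fold change -0.40 ± 0.049, adjusted p = 1.35e-06, edgeR), and ALDOA and SLC2A1, the glucose transporter GLUT1, fell by 0.32 and 0.27 on the log2 scale (adjusted p = 6.7e-05 and 6.14e-05, edgeR). Of 46 genes of the unfolded protein and integrated stress responses, 18 fell and 4 rose, 15 and 6 without the replicate. AARS1, an alanyl-tRNA synthetase gene, fell by 0.43, TRIB3 by 0.31 and DDIT3 by 0.23 on the log2 scale (adjusted p = 1.39e-07, 0.00434 and 0.0235, edgeR), while ATF4, the transcription factor gene upstream of them, rose by 0.25 (adjusted p = 0.00047, edgeR) and the cystine transporter gene SLC7A11 by 0.42 (adjusted p = 2.73e-05, edgeR).

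Of 15 neurotrophin ligands, receptors and their partners, 3 rose, BDNF among them, and 2 fell, NTRK2 among them. The sorting receptor gene SORCS2 was at 2.48, 3.41 and 2.53 against 3.88, 5.54 and 4.25 CPM (log2 fold change 0.69 ± 0.16, adjusted p = 0.00244, edgeR). NTRK3, which encodes TrkC, was under 1 CPM in all 6 libraries. Of 49 signal transducers downstream of Trk receptors, 7 fell and 4 rose (median -0.01), shares close to or below the background, and 4 fell without siCtrl_Sen replicate 1. MAPK3, which encodes ERK1, was at 121, 108 and 116 against 87.3, 87.4 and 87.4 CPM (log2 fold change -0.40 ± 0.049, adjusted p = 1.72e-06, edgeR), NRAS fell by 0.31 on the log2 scale (adjusted p = 0.000164, edgeR) and PLCG1 rose by 0.30 (adjusted p = 0.000186, edgeR). Of 20 transcriptional outputs of ERK signaling, 6 fell and 2 rose, but 1 fell without siNTRK2_Sen replicate 2, 3 without siCtrl_Sen replicate 1 and 2 without siCtrl_Sen replicate 2. EGR1 was at 26.6, 29.5 and 25.7 against 24.1, 20.9 and 23.4 CPM (log2 fold change -0.26 ± 0.068, adjusted p = 0.0079, edgeR). Of 23 immediate early and AP-1 genes, a list that also holds EGR1, 6 fell and the other 17 did not pass (median -0.14), with 4 falls and 1 rise without siNTRK2_Sen replicate 2. In this list JUNB, an AP-1 subunit gene, was at 43.8, 40.7 and 40.9 against 37.6, 26.2 and 33.5 CPM (log2 fold change -0.36 ± 0.081, adjusted p = 0.002, edgeR), with siNTRK2_Sen replicate 2 the lowest.

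Among genes of cell survival and death, the shares called can be read against 11.1% higher and 10.0% lower over all genes. Of 19 BCL2 family genes, 5 fell, PMAIP1 with the largest change, and the count was 2 when siNTRK2_Sen replicate 2 or 3 or siCtrl_Sen replicate 1 or 3 was left out. Of 36 genes of death receptors, adaptors and caspases, 7 rose and 3 fell. The inhibitor of apoptosis gene BIRC5, which encodes survivin and also acts in mitosis, was at 6.15, 5.69 and 5.44 against 8.71, 9.98 and 8.36 CPM (log2 fold change 0.65 ± 0.081, adjusted p = 2.3e-06, edgeR). TNFRSF11B, the decoy receptor osteoprotegerin, rose by 0.33 (adjusted p = 1.06e-05, edgeR), and CASP9 fell by 0.32 on the log2 scale (adjusted p = 0.0134, edgeR).

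The siNTRK2_Sen libraries were also compared directly with the siBDNF_Sen libraries. The siCtrl libraries are not part of this contrast, though they entered the model's estimate of spread, and the fit of the silenced groups alone called 279 genes by adjusted p and fold change. Between the silenced groups 250 genes (1.16%) passed the adjusted p and the fold change, and by adjusted p alone 1903 (8.84%) were higher and 1692 (7.86%) lower with siNTRK2. For scale, 3604 genes (16.7%) passed the adjusted p and the fold change between siCtrl_Sen and siCtrl_Prolif. Of the mitosis genes, 38 were higher with siNTRK2 than with siBDNF (median difference 0.60) and CDC25A was lower, and 37 were higher without siNTRK2_Sen replicate 2. KIF20A was at 3.27, 2.33 and 2.44 CPM with siBDNF (difference 1.03, adjusted p = 9.62e-08, edgeR) and MKI67 at 1.95, 2.79 and 2.30 CPM (difference 0.81, adjusted p = 0.000472, edgeR), so all siNTRK2_Sen values were above all siBDNF_Sen values. CENPF was at 4.09, 6.12 and 4.80 CPM with siBDNF, and its difference of 0.34 did not pass (adjusted p = 0.135, edgeR).

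Collagens and chemokines also differed between the silenced groups. 21 of 28 collagen genes were higher with siNTRK2 (median difference 0.42), and 7 of 18 chemokine genes were lower (median difference -0.98). Without siNTRK2_Sen replicate 2 the counts were 22 and 9. CXCL8 was at 45.6, 43.3 and 46.2 CPM with siBDNF (difference -1.77, adjusted p = 2.9e-15, edgeR), above each siCtrl_Sen value, whereas CCL2 at 12.9, 10.5 and 12.4 CPM did not differ detectably from siNTRK2 (difference -0.12, adjusted p = 0.352, edgeR). TIMP3 with siBDNF was at 1211, 1218 and 1268 CPM (difference -1.12, adjusted p = 4.99e-16, edgeR), and ICAM1 at 88.2, 84.2 and 88.5 CPM (difference -0.92, adjusted p = 5.34e-13, edgeR). Of the p53 targets 21 were lower and 5 higher with siNTRK2 (18 and 5 without the replicate), CDKN1A with a difference of -0.46 (adjusted p = 9.38e-09, edgeR). Against siCtrl_Sen the median p53 target changed by -0.08 with siNTRK2 and by 0.098 with siBDNF.

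Of the cytosolic ribosomal protein genes, 6 were higher and 1, RPS28, was lower with siNTRK2 than with siBDNF, and of the nuclear respiratory genes 3 and 2. Without siNTRK2_Sen replicate 2, 1 ribosomal gene was higher and 1 lower, and 3 nuclear respiratory genes were lower. Of the 13 mitochondrial genome mRNAs 12 were higher with siNTRK2 and 1 was lower, also without the replicate. Of the DNA repair genes 4 were higher. Against siCtrl_Sen, whose libraries both comparisons share, the median ribosomal change was -0.18 with siNTRK2 and -0.27 with siBDNF, and the median repair change 0.21 and 0.16. Several further lists differed between the siRNAs at shares above the background of 8.84% higher and 7.86% lower. Lower with siNTRK2 were 13 of 20 transcriptional outputs of ERK, 12 of 23 immediate early and AP-1 genes, which share members with them, and 12 of 25 NF-kB regulators and targets. Without siNTRK2_Sen replicate 2 these counts were 11, 10 and 12. Higher with siNTRK2 were 21 of 33 contractile genes, 27 of 52 matrix glycoprotein and proteoglycan genes and 11 of 12 fibroblast markers, and 21, 27 and 12 without the replicate. Against siCtrl_Sen, the medians of these 3 lists were 0.034, 0.245 and 0.311 with siNTRK2 and -0.169, 0.093 and -0.143 with siBDNF. For the ERK, AP-1 and NF-kB lists they were -0.107, -0.143 and -0.184 with siNTRK2 and 0.19, 0.11 and 0.043 with siBDNF. The differences between the siRNAs thus held changes with siBDNF as well as with siNTRK2.

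**Figure D5:**
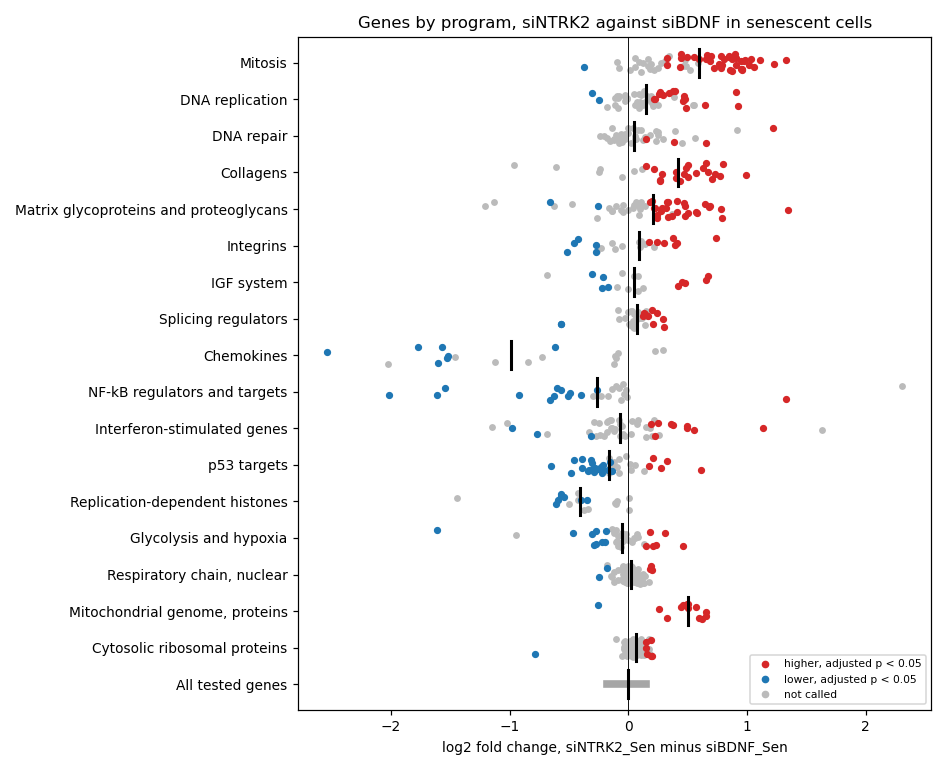
Each point is a tested gene of the list named on the left, placed by its log2 fold change, siNTRK2_Sen minus siBDNF_Sen, on the x axis, with the colors, ticks and bar of the plot of siNTRK2 against siCtrl. The mitosis median lies at 0.60 and the chemokine median at -0.98, while the ribosomal and nuclear respiratory medians lie at 0.06 and 0.02.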

How the data were processed

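RNA-seq was analysed in 12 libraries of WI-38 cells, 3 per group. The deposited values are raw counts of reads per Ensembl gene. The authors made them by converting to FASTQ (bcl2fastq 2.20.0.422) and trimming adapters (Cutadapt). Paired reads of stranded polyadenylated libraries were then aligned to hg19 (STAR 2.4.0j) and counted (featureCounts 1.6.4, per the labels' processing notes). Whether counting used the strand is not given in the sources used here, so overlapping genes are uncertain.

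Counts were tested in R 4.3.3 with edgeR 4.0.16 (TMM, filterByExpr, quasi-likelihood model with 1 term per group on all 12 libraries, Benjamini-Hochberg over 21518 of 57773 genes). A standard error is the log2 fold change over the square root of F. Values are normalized CPM. Totals ran from 31567912 to 72328151. The floor of 3 counts covers counting error only, since PCR copies were not marked. The study states in general that its experiments were repeated independently with all groups kept together, but the labels tie neither these libraries nor their numbers to separate cultures, so p-values measure the spread between these libraries. DESeq2 1.42.0 was an alternative, and a spline of length and GC content (4 degrees of freedom) gave an offset.

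Genes were named from the largest changes whose groups did not overlap at a mean of at least 1 CPM (15 rises and 15 falls), the 5 smallest p-values each way and up to 4 called members of each of 51 lists. Members to illustrate a list's roles, or that did not pass, and the genes in figures were chosen after their values were seen. The comparison, lists and rules were chosen with earlier results of these data known. Symbols matched 1663 of 1707 list entries, but only 23 of 53 in the histone list, and the others were not analysed here.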

Additional observations from a re-analysis of the deposited data

How the results depend on the processing

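The number of genes passing the adjusted p and the fold change with siNTRK2 was 206, and with at least 10 counts in every library it was 91, because fewer rare genes were tested. This filter gave 110 in place of 250 genes for siNTRK2 against siBDNF and 1646 in place of 3604 for siCtrl_Sen against siCtrl_Prolif. DESeq2's Wald test gave 165 with siNTRK2 (4582 by adjusted p alone) and the fit of the 2 groups alone 140. Library totals in place of TMM gave 201, DESeq2 size factors 207, no filter 246 and the length and GC offset 209. With each library left out in turn the count ranged from 150 to 277, and by adjusted p alone, 4548 in the full fit, from 2943 (without siCtrl_Sen replicate 1) to 4804. Without siCtrl_Sen replicate 3 it was 3010. Leaving out siNTRK2_Sen replicate 2 gave 234 and 4140, of which 127 and 3593 were also called in the full fit. With each library left out in turn, siNTRK2 against siBDNF gave 170 to 281 and siCtrl_Sen against siCtrl_Prolif 3548 to 3758 genes.

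The replicate block gave 199 and 4553 genes with siNTRK2 and 233 against siBDNF, and NTRK2 kept its call (adjusted p = 0.00394 from edgeR with the block). Same-numbered libraries of the 2 groups did not deviate together (correlations -0.00474 to 0.00375), and whether a number marks an experiment is not given in the labels. DESeq2 gave NTRK2 no adjusted p, and NTRK2 was not tested with at least 10 counts or in the fit of 2 groups. Of 3647 pairs of a named gene other than NTRK2 and an alternative, 153 lost the call, in 45 of 261 genes, and no called gene changed direction. Leaving out 1 library ended the call of CDKN2A, IL6, DDIT3, LOXL1, CXCL11, CASP9, EGR1, BRCA1 (without siCtrl_Sen replicate 1), CXCL3 (without siCtrl_Sen replicate 3) and CCND1 (without siNTRK2_Sen replicate 2). Of 588 pairs of a list and an alternative, 40 counts fell and 5 rose by over 1.5 times, the largest in numbers of genes being in the ribosomal and respiratory lists when a siCtrl_Sen library was left out. Depth limits NTRK2 and other mRNAs under about 1 CPM.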

Other observations

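Several gene groups outside the main programs moved with siNTRK2. Of 54 lysosome genes, 18 rose and 12 fell. The rises were led by hydrolases such as GUSB at 0.81 (adjusted p = 1.4e-08, edgeR), MAN2B1 at 0.64 (adjusted p = 6.12e-08, edgeR) and HEXA at 0.51 (adjusted p = 1.41e-08, edgeR), while the proton pump subunit genes ATP6V0A1 and ATP6V0D1 fell by 0.54 and 0.36 on the log2 scale (adjusted p = 3.8e-08 and 1.76e-05, edgeR). Of 56 axon guidance and neuronal adhesion genes, 21 rose and the others did not pass (median 0.16), among them the plexin genes PLXNC1 and PLXND1 at 0.76 (adjusted p = 0.000367, edgeR) and 0.52 (adjusted p = 2.21e-07, edgeR). Compared directly with siBDNF, 7 of these genes were higher and 13 lower with siNTRK2, the latter including L1CAM at -0.66 (adjusted p = 5.36e-05, edgeR). Of 36 splicing regulator genes, 15 rose and PTBP3 fell, with SRSF6 at 0.38 (adjusted p = 2.11e-06, edgeR).

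Single genes with large changes lay outside the lists or stood out in them. ST6GALNAC4, which encodes a sialyltransferase, was at 35.3, 28.9 and 34.7 CPM in siCtrl_Sen and 12.3, 11.5 and 11.8 CPM in siNTRK2_Sen libraries (log2 fold change -1.47 ± 0.077, adjusted p = 9.74e-13, edgeR), against 31.7, 29.8 and 34.1 CPM with siBDNF. SLC40A1, the iron exporter ferroportin, had group means of 18.1 and 9.34 CPM (log2 fold change -0.96 ± 0.083, adjusted p = 6.92e-09, edgeR). The long noncoding RNA MEG3 was at 78.4, 95.8 and 65.9 against 145, 130.3 and 141 CPM (log2 fold change 0.79 ± 0.14, adjusted p = 0.000158, edgeR). ANKRD1, a target of the YAP and TEAD factors, was at 5.31, 5.98 and 5.96 against 10.3, 12.3 and 10.6 CPM (log2 fold change 0.94 ± 0.11, adjusted p = 8.9e-07, edgeR), and CDH13, a cadherin gene, at 20.6, 22.5 and 20.5 against 42.5, 39.1 and 41.9 CPM (log2 fold change 0.96 ± 0.059, adjusted p = 2.61e-11, edgeR). In each of these genes the groups did not overlap, which for ST6GALNAC4, one of the largest falls, was a condition of being named. The siRNA sequences were not used here, so whether the pool pairs with any of the mRNAs that fell was not tested.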
